A study of Homo sapiens with 4 samples.

Results

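The spliceosomal small nuclear RNA (snRNA) genes were examined for FOXK1 peaks in HK-2 cells, an immortalised human proximal tubular epithelial line. Members were the RefSeq genes of biotype snRNA on chromosomes 1 to 22 and X, without RN7SK, 148 of 58419 RefSeq genes on these chromosomes. The groups were HK-2 cells kept for 24 h in 10 ng/ml TGF-β1, a growth factor known for its role in fibrosis, and HK-2 cells without it, each with 1 library from an antibody to the forkhead factor FOXK1 and 1 input library. The deposited data were a list of peaks for each condition, 439136 peaks with TGF-β1 and 381700 in the control on assembled chromosomes, with a height for each peak that is the authors' own value, a whole number from 3 upward and 5 at the median of each list. Sequencing depth is unknown and both conditions had 1 FOXK1 library, so the lists compare 2 libraries and allow no test of TGF-β1. Heights are given for both lists, but a difference between them does not measure a change in binding. Chromatin was cut with MNase and sonication.

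Not all members are spliceosomal by name. By symbol, 41 were RNU or RNVU1 genes, 21 of U1 and 20 of other types, and 79 carried only a LOC symbol with no type. Another 28 were SNAR genes, which encode small NF90-associated RNAs and are not spliceosomal, and RNU7-1 encodes the U7 RNA of histone pre-mRNA processing.

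Spliceosomal snRNAs are the RNA cores of the particles that remove introns from pre-mRNA. U1 pairs with the 5′ splice site and U2 with the branch point, while U4, U5 and U6 join as a tri-snRNP, and U11, U12, U4atac and U6atac do the same work, with U5, at a minor class of introns. Their genes are short, lack introns and have promoters with a proximal element bound by SNAPc and a distal element with an octamer motif bound by OCT1. RNA polymerase II transcribes most of them, and RNA polymerase III transcribes U6 and U6atac.

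Every RNU gene other than U1 carried a FOXK1 peak in both lists, and the peak usually lay over the gene. A peak of any height within 1 kb was found at 20 of 20 of these genes in the TGF-β1 list and at 20 of 20 in the control list (95% interval 83.2 to 100% in each). Of 1799 RNU and RNVU1 pseudogenes, sequence relatives of the same types, 34.1% had a peak in the TGF-β1 list and 28.2% in the control list. Other RefSeq genes of at most 500 bp had one in 37.1% and 34.0% of cases, and all other RefSeq genes, long ones included, in 68.5% and 67.7%. With the window reduced to the gene itself, all 20 were still overlapped in both lists. Pseudogenes were overlapped in 8.67% of cases in the TGF-β1 list and 5.84% in the control list. Other genes of at most 500 bp had 11.6% and 11.2%, and all other RefSeq genes, long ones included, 57.9% and 58.1%. The split into U1 and other types came from the symbols, and the comparison with pseudogenes was chosen after the values were seen.

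The peaks at these 20 genes were high for their lists. Strong peaks were those at or above the height of the 10000th highest peak of a list, which was 15 with TGF-β1 and 17 in the control. They were found at 14 of the 20 genes in the TGF-β1 list and 13 in the control list, 12 in both. Pseudogenes had one in 1.22% and 1.33% of cases, and other genes of at most 500 bp in 2.77% and 2.90%. Shares were larger for all other RefSeq genes, long ones included, at 13.2% and 13.7%, and for protein-coding genes, at 26.7% and 27.9%. In both lists, 5988 of the 58270 other RefSeq genes had a strong peak. The median of the highest peak per gene was 19 with TGF-β1 and 22.5 in the control, and for pseudogenes with a peak it was 5 and 6. The highest peaks of both lists overlapped each other at 19 of the 20 genes, RNU6-7 being the exception. No share for other genes is set beside this count, and the part of height in it was not tested. The 2 U4 genes share a peak and RNU6-7 and RNU6-8 share another, so the 20 genes are not 20 separate sites.

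**Figure D1:**
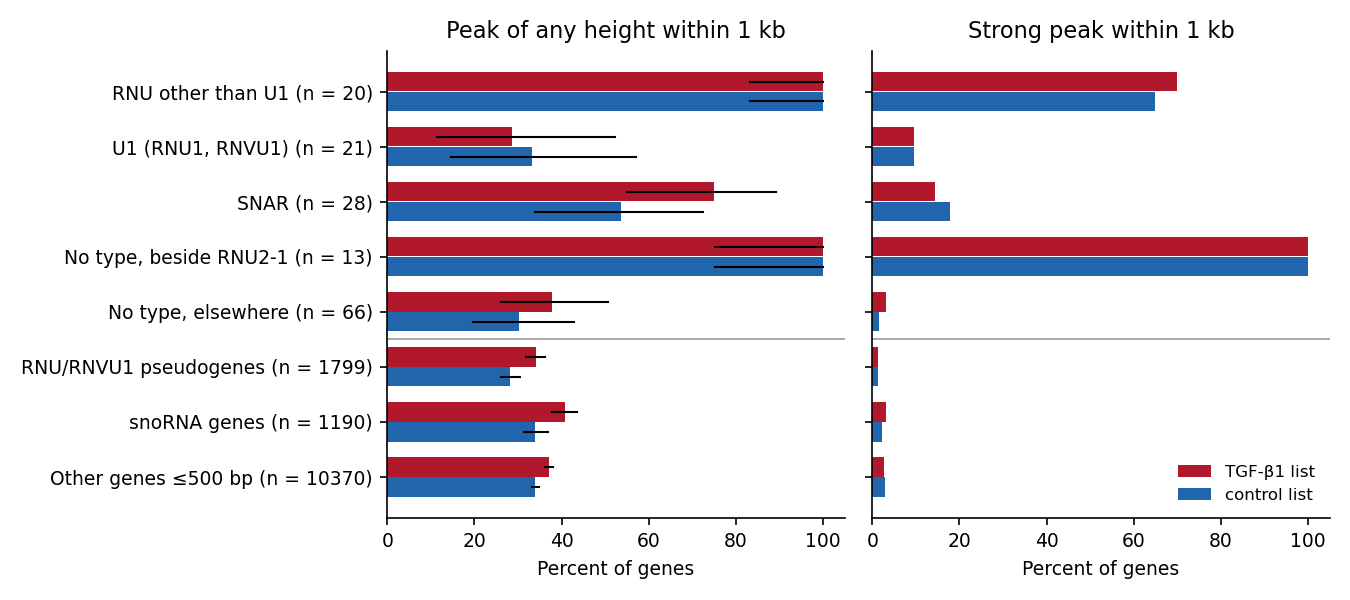
Percent of genes with any peak (left) and a strong peak (right) within 1 kb, for 5 sets of snRNA members above the line and 3 comparison sets below it; red bars are the TGF-β1 list, blue bars the control list, and black lines 95% intervals (exact binomial, counting error only). For any peak, the RNU genes other than U1 and the members beside RNU2-1 reach 100% in both lists, while U1 genes and untyped members elsewhere lie near the pseudogenes. For strong peaks, the RNU genes other than U1 have 14 and 13 of 20, and U1 genes 2 of 21 in each list.

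For 4 of these genes a RefSeq promoter sequence of a neighbouring transcript is shown, because it lies in a FOXK1 peak and holds the gene or a motif match (build GRCh38.p14, whose chromosomes share their coordinates with the hg38 of the peaks). The first window, chr12:6943772-6944071 on the plus strand, belongs to C12orf57 and holds the whole of RNU7-1, whose 63 bases are in capitals. The second, chr2:88016389-88016688 on the plus strand, belongs to LOC105374852 and holds 159 bases of RNU2-63P in capitals. The third, chr12:120291939-120292238 on the plus strand, belongs to SIRT4 and begins 36 bp beyond RNU4-2, with an octamer match in capitals. The fourth, chr19:893138-893437 on the minus strand, belongs to MED16 and has its 5′ end 47 bp from RNU6-9, with matches to TATA box and octamer letters in capitals. The TGF-β1 peaks covered all 300 bases of each window, and the control peaks all of each except the last, of which they covered 0.
RNU7-1 with C12orf57 promoter: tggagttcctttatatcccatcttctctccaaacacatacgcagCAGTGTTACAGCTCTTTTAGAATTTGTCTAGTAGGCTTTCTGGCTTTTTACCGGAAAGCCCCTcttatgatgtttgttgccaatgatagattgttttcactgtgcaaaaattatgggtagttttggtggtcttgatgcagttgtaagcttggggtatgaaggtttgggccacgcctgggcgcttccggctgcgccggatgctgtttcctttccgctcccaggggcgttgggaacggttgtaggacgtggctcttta
RNU2-63P with LOC105374852 promoter: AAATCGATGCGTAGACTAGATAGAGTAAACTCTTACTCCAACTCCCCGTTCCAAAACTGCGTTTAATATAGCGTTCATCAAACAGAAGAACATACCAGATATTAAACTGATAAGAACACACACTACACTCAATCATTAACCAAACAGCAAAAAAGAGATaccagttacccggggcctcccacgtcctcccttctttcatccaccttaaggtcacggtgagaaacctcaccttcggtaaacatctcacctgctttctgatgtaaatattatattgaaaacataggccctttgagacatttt
SIRT4 promoter beside RNU4-2: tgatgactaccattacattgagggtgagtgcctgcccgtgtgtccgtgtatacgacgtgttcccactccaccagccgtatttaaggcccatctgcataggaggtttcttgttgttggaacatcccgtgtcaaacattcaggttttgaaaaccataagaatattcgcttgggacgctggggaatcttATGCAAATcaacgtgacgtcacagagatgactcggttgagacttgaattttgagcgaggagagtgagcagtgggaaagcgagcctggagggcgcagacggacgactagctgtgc
MED16 promoter beside RNU6-9: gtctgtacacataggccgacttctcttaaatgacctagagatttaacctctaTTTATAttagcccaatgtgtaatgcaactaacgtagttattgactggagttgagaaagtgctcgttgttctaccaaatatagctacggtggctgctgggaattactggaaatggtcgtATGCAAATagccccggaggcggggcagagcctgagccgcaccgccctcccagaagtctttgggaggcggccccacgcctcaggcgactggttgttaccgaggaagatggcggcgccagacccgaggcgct

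These windows were searched on both strands for 4 kinds of motif, with overlapping matches counted once per promoter. The octamer ATGCAAAT was found in the SIRT4 window, with 221 bases between it and RNU4-2, and in the MED16 window, with 216 bases between it and RNU6-9. Of 35116 RefSeq promoters of the same length, 1.77% hold it. The 4 windows were chosen in part for their matches, so the shares of all promoters given here are no test of enrichment. The forkhead letters GTAAACA or ATAAACA, held by 7.43% of promoters, were found in the RNU2-63P window, as GTAAACA at position 235 from its 5′ end, 75 bases beyond the gene. The RNU7-1, SIRT4 and MED16 windows held neither form. TATA box letters, TATAAA or TTATATA in 12.6% of promoters, were present at position 10 of the RNU7-1 window and position 53 of the MED16 window. The ZNF143-type letters CCCANNATG, held by 4.63% of promoters, were in none of the 4 windows. Windows of neighbours at RNU6-2, RNU12, RNVU1-2A and RNVU1-6 were searched too and held no match, and a later LOC105374852 start beside RNU2-63P held an octamer match. The promoter table held 0 of the 148 members themselves, and the strand of the members was not given, so these are windows of neighbours and the matches are a description.

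Among the U2 genes, RNU2-2 had the highest control peak of all RNU genes. RNU2-2, on chromosome 11 from 62841619 to 62841809 and inside the end of WDR74, had a peak of height 38 in the TGF-β1 list and 54 in the control list. Peaks at or above these heights made up 0.273% and 0.174% of their lists. The peaks were wide, 2611 bp with TGF-β1 and 2512 bp in the control, and reached from the snRNA gene into WDR74, so they are also gene-end peaks of that gene. RNU2-1 had 20 with TGF-β1 and 18 in the control, from peaks of 354 and 622 bp over the gene. Untyped members of like length repeat beside it, and such copies can share reads, so the RNU2-1 heights are uncertain. RNU2-63P, a U2 gene whose symbol ends like that of a pseudogene, had 15 and 17, each at the limit of the strong peaks of its list.

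The U4 genes had equal heights in the 2 lists. RNU4-2 (chromosome 12, 120291759 to 120291903) and RNU4-1 (120293093 to 120293237) lay under the same peak, with a height of 42 in the TGF-β1 list and 42 in the control list. It was 2136 bp wide with TGF-β1 and 2367 bp in the control and covered both genes whole. The lower end of SIRT4, a mitochondrial sirtuin gene, lies 21 bp inside RNU4-2 and so falls under the peak too.

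All 5 U5 genes were occupied, on chromosomes 1 and 15. RNU5A-1 had a height of 23 in the TGF-β1 list and 32 in the control list. RNU5F-1 had 21 with TGF-β1 and 29 in the control, and RNU5E-1 had 20 and 26. These 3 were strong in both lists. RNU5D-1 had 14 with TGF-β1 and 22 in the control, strong in the control only, and RNU5B-1 had 17 and 15, strong with TGF-β1 only. Each missed the limit by 1 or 2 units in its other list. None of the 5 had an annotated protein-coding gene end within 1 kb, although RNU5F-1 lies inside ARMH1.

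U6 genes, transcribed by RNA polymerase III, had peaks of height 13 or less, below those of every RNU gene of another type except U1. RNU6-1 had a height of 13 in the TGF-β1 list and 10 in the control list, RNU6-2 had 13 and 13, RNU6-7 10 and 11, RNU6-8 10 and 9, and RNU6-9 6 and 7. None of the 5 was strong in either list, and RNU6-9 lay near the list median of 5. At RNU6-7 the highest peak lay beside the gene in each list, and lower peaks, of 5 with TGF-β1 and 9 in the control, overlapped it, the TGF-β1 peak only in part. RNU6-9, whose heights were under 10, was named after its values were seen. All the same, 5 of 5 U6 genes were overlapped by a peak in both lists, against 8.82% of 1270 U6 pseudogenes with TGF-β1 and 5.67% in the control. RNU6ATAC, also an RNA polymerase III gene, differed from the U6 genes in height. Its peak had 46 in the TGF-β1 list, the highest of all RNU genes there, and 35 in the control list. The 14 RNU genes other than U1, U6 and U6atac, all of the RNA polymerase II class, to which U1 also belongs, ran from 14 to 42 with TGF-β1 and from 14 to 54 in the control, 13 and 12 of them strong.

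The remaining minor spliceosome genes and U7 were occupied with middle to high values. RNU11, which recognises the 5′ splice site of minor introns, had 20 in the TGF-β1 list and 31 in the control list, from peaks of 2209 and 2940 bp that also covered the nearest end of TAF12, 331 bp from the gene. RNU12, the branch point RNA of that class, had 16 with TGF-β1 and 24 in the control. RNU4ATAC, inside CLASP1 and 118453 bp from its nearest end, had 18 with TGF-β1 and 14 in the control, strong with TGF-β1 only. RNU7-1 had 20 and 23. Of these 4 genes all had a peak over the gene in both lists.

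**Figure D2:**
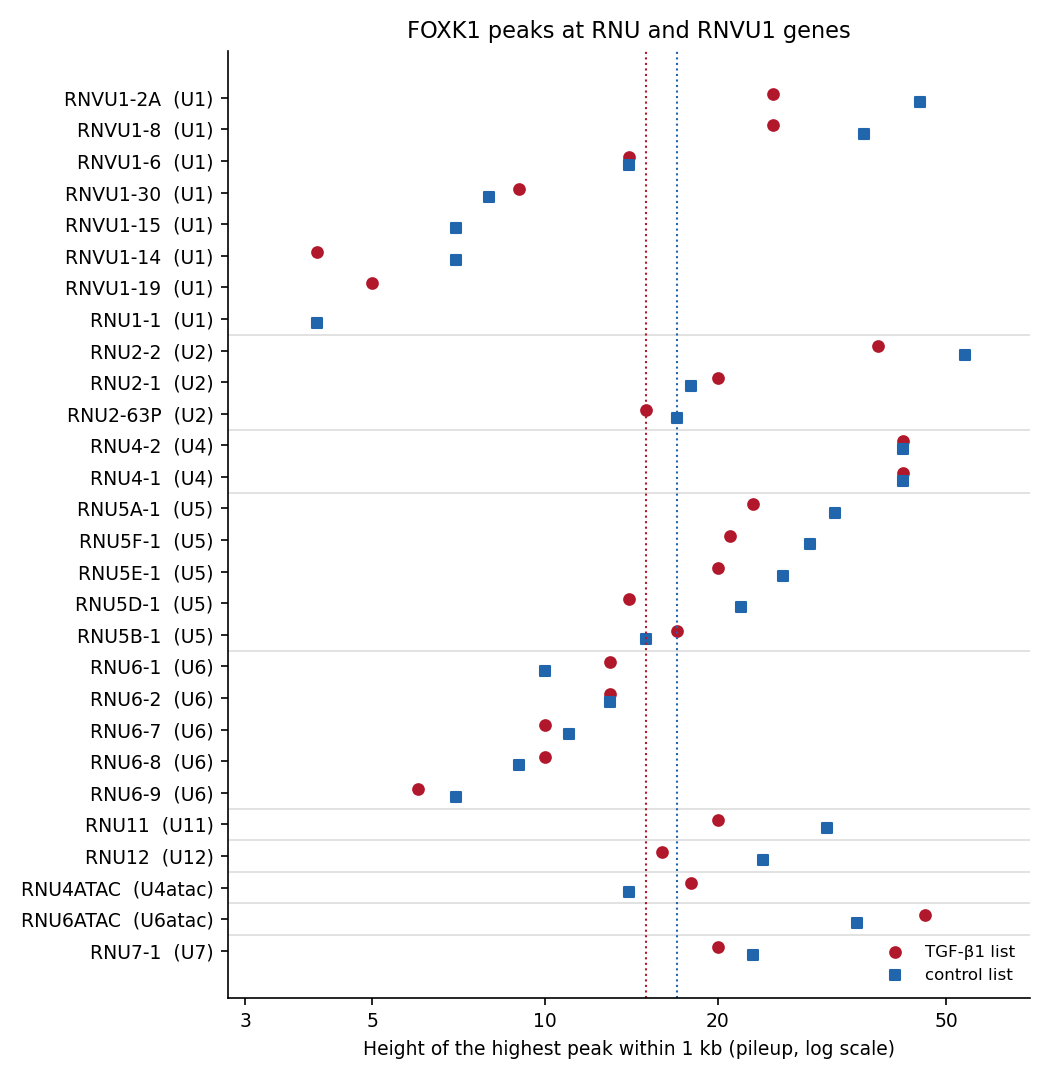
Height of the highest peak within 1 kb (pileup, log scale) at the 28 RNU and RNVU1 genes with a peak in either list, by type; red circles are the TGF-β1 list, blue squares the control list, and dotted lines the height at which strong peaks begin in each list, 15 and 17. U6 genes lie left of both lines, RNU2-2, RNU4-1, RNU4-2 and RNU6ATAC at 35 or more in both lists, and most U1 genes with a peak are low.

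RNU genes were occupied with and without a protein-coding gene end nearby, a split made after the values were seen. Of the 20 genes, 7 had a protein-coding gene end within 1 kb and 13 had none. All 13 had a peak in both lists, and 9 were strong with TGF-β1 and 8 in the control, against 1.13% and 1.19% of 1769 pseudogenes with no such end nearby. RNU4-1 is among the 13, but its peak is shared with RNU4-2 and covers the SIRT4 end. Ends of noncoding genes were not part of the split. RNU6ATAC, RNU2-63P and RNU4ATAC had an end of a long noncoding RNA gene 1, 92 and 712 bp away. Of the 7 with an end nearby, 5 were strong in each list, against 6.67% and 10.0% of 30 pseudogenes with such an end. Coverage was highest near the genes. At the middle of the gene a peak covered 85.0% of the 20 genes with TGF-β1 and 90.0% in the control. At 5 kb towards higher coordinates it covered 15.0% and 5.0%. Pseudogenes had 7.0% and 4.89% at their middle and 6.23% and 6.45% at that distance.

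**Figure D3:**
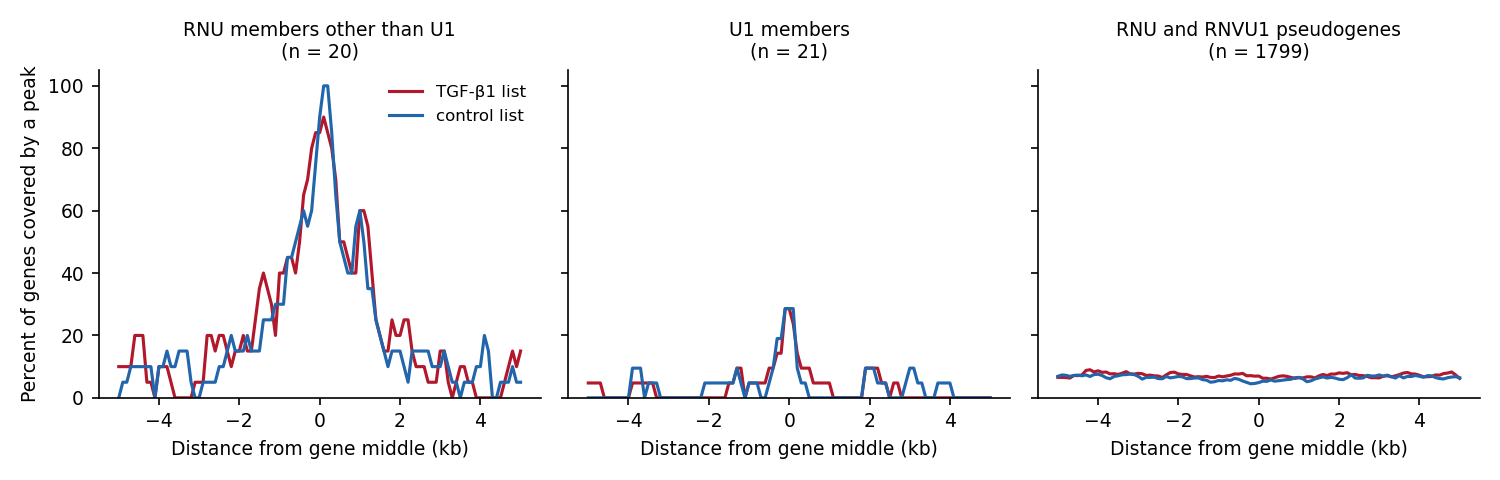
Percent of genes covered by a peak at each distance from the gene middle, in steps of 100 bp over 5 kb on each side, for the 20 RNU genes other than U1, the 21 U1 genes and 1799 pseudogenes; red is the TGF-β1 list and blue the control list. The first set rises at the gene to 85.0% and 90.0% at distance 0, U1 genes reach 28.6% in both lists, and the pseudogenes lie between 6.0% and 9.01% with TGF-β1 and between 4.5% and 7.62% in the control, where they are lower near the gene than farther away.

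U1 genes were occupied far less often. Of the 21, 6 had a peak within 1 kb in the TGF-β1 list and 7 in the control list, 28.6% (11.3 to 52.2) and 33.3% (14.6 to 57.0). At this window the shares were near those of the pseudogenes and of other short genes. Counting only peaks over the gene itself, the U1 shares stayed at 28.6% and 33.3%. Pseudogenes had 8.67% and 5.84%, and all other RefSeq genes 57.9% and 58.1%. Strong peaks were at 9.52% of U1 genes in each list, against 1.22% and 1.33% of the pseudogenes and 13.2% and 13.7% of all other RefSeq genes. The 4 RNU1 genes on the short arm of chromosome 1, the main U1 copies, had almost nothing. RNU1-2, RNU1-3 and RNU1-4 had no peak in either list, and RNU1-1 had 1 of height 4 in the control only. Of the 17 variant genes RNVU1, 6 had a peak in each list, 5 in both. RNVU1-2A had 25 with TGF-β1 and 45 in the control, and RNVU1-8 had 25 and 36, both strong in both lists and both among the highest 1% of their lists. RNVU1-6 had 14 and 14, RNVU1-30 had 9 and 8, and RNVU1-14 had 4 and 7. RNVU1-19 had 5 with TGF-β1 only, and RNVU1-15 had 7 in the control only. RNVU1-14, RNVU1-15, RNVU1-19, RNVU1-30 and RNU1-1 had heights under 10 and were named after their values were seen. No peak was found in either list at RNVU1-1, RNVU1-3, RNVU1-4, RNVU1-7, RNVU1-17, RNVU1-18, RNVU1-26, RNVU1-27, RNVU1-28 and RNVU1-31.

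The highest peak of each occupied U1 gene overlapped the gene, which the 1 kb window did not require. The highest peak overlapped the gene at 6 of 6 occupied U1 genes with TGF-β1 and at 7 of 7 in the control. Among pseudogenes with a peak it did so at 135 of 613 with TGF-β1 and 100 of 508 in the control. U1 genes are near-identical copies, and how the authors treated reads that fit several places was not stated in the labels or files, so an empty U1 gene is uncertain. The part of such reads in these counts was not tested.

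Beside RNU2-1 on chromosome 17, 13 untyped members of like length repeat within 134 kb, a set picked after the values were seen, and all of them were strong in both lists. The median of their highest peaks was 30 in the TGF-β1 list, with a range of 21 to 147, and 33 in the control list, with a range of 20 to 161. LOC124904137, 11.9 kb from RNU2-1, had 147 with TGF-β1 and 161 in the control, the highest values of all snRNA members. LOC124904138 had 122 and 108, LOC124904142 46 and 39, LOC124904144 33 and 35, and LOC124904147 32 and 33. Peaks over the gene itself were found at 13 of 13 in both lists. Within the same 136 kb, peaks farther than 1 kb from any member had a median of 12 with TGF-β1 and 9 in the control, against 24 and 25 for those within 1 kb. Heights differed along the stretch: between the last members near 67 kb and the member at 134 kb, many peaks in both lists were at or below the list median of 5. The medians of the farther peaks include that stretch, which has no member. Up to 67 kb, the farther peaks ran from 11 to 31 with TGF-β1 and from 10 to 32 in the control. The table gave these members no type, and copies in a tandem repeat can share reads, so single values are uncertain.

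**Figure D4:**
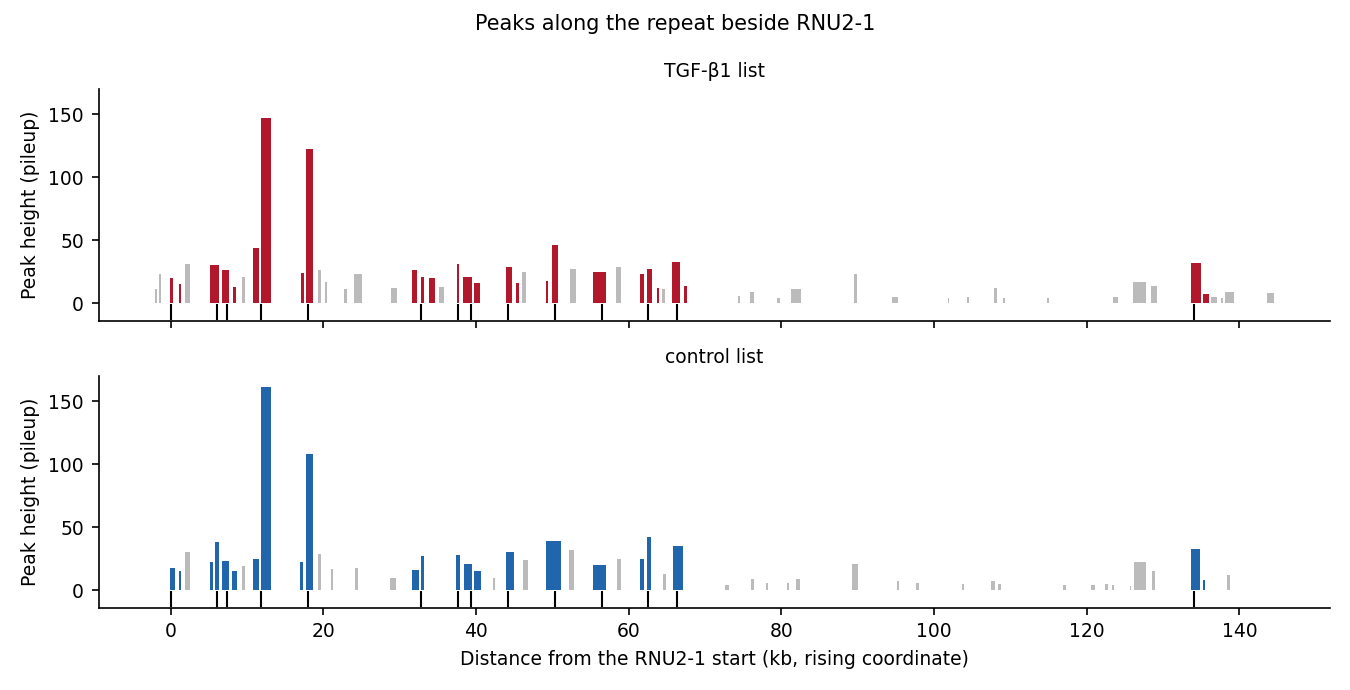
Peak height against distance from the RNU2-1 start in kb for the TGF-β1 list (top) and the control list (bottom); coloured bars are peaks within 1 kb of a member, grey bars other peaks, bar width is peak width, and black ticks below the axis mark RNU2-1 and the 13 untyped members. The 2 highest peaks, at LOC124904137 and LOC124904138, exceed 100 in both lists.

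The other 66 untyped members had shares close to those of other short genes. A peak was found at 25 with TGF-β1 and 20 in the control, 37.9% and 30.3%. Both lists had one at 9 of the 66, 13.6%, against 18.1% of other short genes. The median height at the untyped members with a peak was 6 in each list. The highest, named here after the values were seen, were LOC124906343 with 23 and 36, LOC124904122 with 16 and 16, and LOC124904613 with 14 and 14. LOC124906343 had these peaks beside and not over the gene.

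SNAR genes, most of them in repeated blocks on chromosome 19, had a peak at 21 of 28 in the TGF-β1 list and 15 in the control list, 13 in both. These shares were 75.0% (55.1 to 89.3) and 53.6% (33.9 to 72.5), against 37.1% and 34.0% of other short genes. The control interval includes that 34.0%. Of all other RefSeq genes, 68.5% and 67.7% had a peak, which is above the SNAR share in the control list. Both lists had a peak at 46.4% of SNAR genes, against 18.1% of other short genes. The highest peak overlapped the gene at 7 of the 21 and 5 of the 15, 33.3% in each list, against 26.5% and 28.8% of other short genes with a peak. Over all SNAR genes, 28.6% and 21.4% were overlapped by some peak at the gene itself, against 11.6% and 11.2% of other short genes. SNAR-A6 had a height of 36 with TGF-β1 and 31 in the control, SNAR-A14 had 34 and 41, and SNAR-A5 had 31 and 39. These copies are also near-identical and uncertain.

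Over all 148 members, 85 had a peak in the TGF-β1 list and 75 in the control list, 57.4% (49.0 to 65.5) and 50.7% (42.3 to 59.0). These shares lay below the 68.5% and 67.7% of all other genes and above the 37.1% and 34.0% of other short genes. Both lists had a peak at 60 members, 40.5%, against 57.5% of all other genes and 18.1% of other short genes. Strong peaks were found at 35 and 34 of the 148 members, of which 31 were common, against 13.2% and 13.7% of all other genes and 2.77% and 2.90% of other short genes. The 13 untyped members beside RNU2-1, copies in a tandem repeat, were in each of these counts of strong members. Members with a peak in 1 list only numbered 25 with TGF-β1 and 15 in the control, 16.9% and 10.1%. The same held for 19.0% and 15.8% of other short genes, and for 6389 and 5939 of the 58270 other genes of any length. The median height of these peaks at members was 6 in each list. Of the 25, 1 was strong, SNAR-A12 with 16, and of the 15, 0. Counted as separate peaks, 118 lay near members in the TGF-β1 list and 98 in the control list. RNU2-1 and the 13 members beside it held 27 and 23 of them. Of the 118 and 98 peaks, 58.5% (49.0 to 67.5) and 73.5% (63.6 to 81.9) overlapped a peak of the other list, against 22.9% and 26.1% of all peaks. At RNU and RNVU1 genes it was 31 of 35 and 33 of 36. Peaks near members were also higher than the lists, with medians of 10 with TGF-β1 and 13.5 in the control against 5, and the part of height in the overlap was not tested.

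The protein genes that serve snRNAs were occupied at their ends in nearly every case. A peak within 1 kb of either annotated end was found at 119 of 122 listed genes in the TGF-β1 list and 115 in the control list, against 75.2% and 75.8% of 19821 protein-coding genes. Strong peaks were at 35 and 41, which is 28.7% and 33.6%, against 15.9% and 17.2%. These genes were not matched to others by expression or promoter, and the count is a description. SNRPN and SMN1 had no gene-end peak in either list, and SMN1 has a near-identical copy.

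Among the factors that start snRNA transcription, 19 of 19 were occupied at an end in each list, against 75.2% and 75.8% of all protein-coding genes. In each list 4 were strong, 21.1%, near the 15.9% and 17.2% of all protein-coding genes, and 2 were strong in both. No role was tested against all genes. TBP, the TATA-binding protein, had 29 with TGF-β1 and 47 in the control, and GTF2B had 24 and 45. SNAPC5, a SNAPc subunit, had 16 and 14, strong with TGF-β1 only. Of the Integrator complex, which cuts the 3′ end of nascent snRNA, 15 of 15 and 13 of 15 genes had a peak. In each list 5 were strong, 33.3%, 4 of them in both. INTS1 had 70 with TGF-β1 and 60 in the control, and INTS9 had 29 and 31. In the little elongation complex, which aids polymerase at snRNA genes, ELL had 20 and 28 and ICE2 had 19 and 24.

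Genes of U6 handling had strong peaks at 6 of 14 with TGF-β1 and 8 in the control, 42.9% and 57.1%. All protein-coding genes had 15.9% and 17.2%. SSB, the La protein that binds the U6 end, had 33 and 34, USB1, which trims that end, had 24 and 24, and LSM3 of the Lsm ring had 23 and 21. Of 15 U1 and U2 particle proteins, 7 and 5 were strong, 46.7% and 33.3%. SF3B6 had 41 with TGF-β1 and 44 in the control, SNRPC 27 and 40, and SF3A3 23 and 32. Of 16 tri-snRNP proteins, 2 and 4 were strong, 12.5% and 25.0%. The TGF-β1 share was the lowest of the 9 roles and below that of all protein-coding genes, though SART1 had 67 and 69. SNRPE, of the Sm ring, had 30 and 31. Of the minor spliceosome proteins SNRNP25 had 22 and 22. For export and assembly, KPNB1 had 17 and 21, from peaks of separate position,, and GEMIN5 had 16 and 21.

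**Figure D5:**
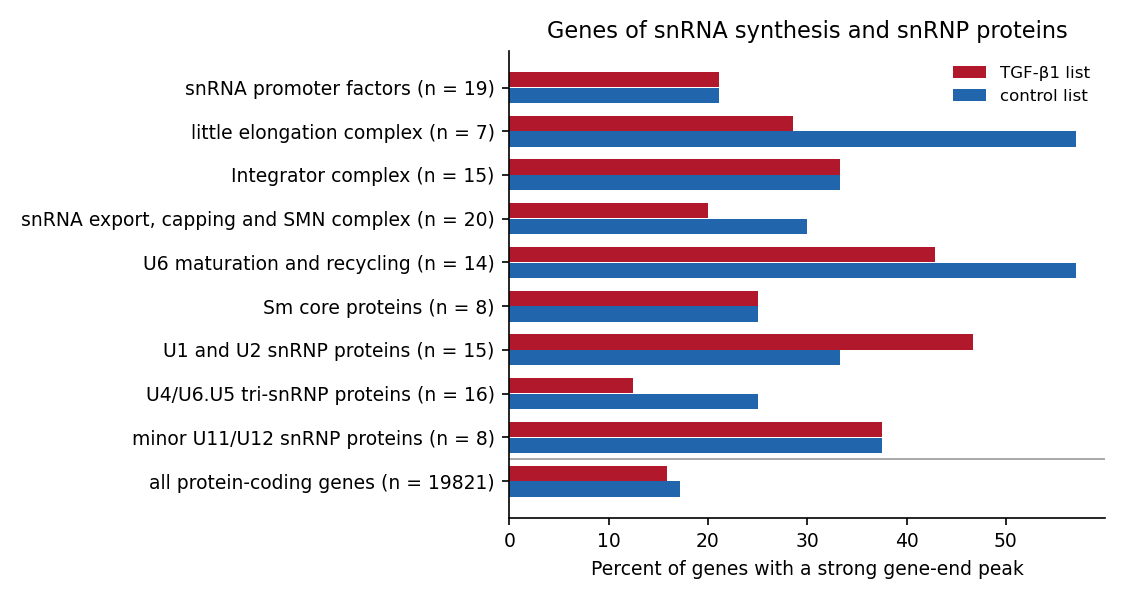
Percent of genes with a strong gene-end peak for 9 roles of snRNA synthesis and snRNP proteins and, below the line, all 19821 protein-coding genes; red bars are the TGF-β1 list and blue bars the control list, with no intervals drawn. The roles hold 7 to 20 genes each, and the U6 role has 6 and 8 of 14 strong.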

How the data were processed

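FOXK1 and input chromatin from HK-2 cells was sequenced. The tools named in the submitters' processing notes are MACS2 2.1.1.20160309 and bcl2fastq 2.17, and the build is hg38. The aligner, read filters, peak threshold, treatment of reads with several places and library depth are not given in the sources used here. The authors deposited a list of peaks per condition, not pooled, with 1 height per peak, read as the signal (pileup height) of the peak caller. No interval for a height can be given without depth.

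Starts were read as counting from 0. Genes came from a RefSeq table on GRCh38.p14. Of its 156 snRNA entries, RN7SK and 7 on scaffolds, patches or alternate loci were left out, the scaffolds and loci recognised from the order of the table. A member had a peak when a peak overlapped the gene plus 1 kb by at least 1 bp. Intervals are exact binomial (Clopper-Pearson, 95%) and cover counting error only. No p-value was computed.

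Types came from symbols. Named with values were RNU or RNVU1 genes with a peak of height 10 or more in either list, the 3 highest of each type, all U4, U5, U11, U12, U4atac and U6atac genes, up to 5 untyped members and up to 4 genes per protein role with the highest peaks, the last by the TGF-β1 list. RNU and RNVU1 genes with no peak were named by symbol. Other names were added after values were seen. Members and lists were chosen with earlier results of these data known. The overlap count was checked on simulated peaks. Python 3.11.15, numpy 2.4.6, pandas 2.3.3, scipy 1.17.1 and matplotlib 3.10.9 were used.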

Additional observations from a re-analysis of the deposited data

How the results depend on the processing

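Of 91 alternative values for 15 counts, 79 were within 1.5 times the value reported. Limiting the window to the gene itself gave 56 members with a peak in the TGF-β1 list, 55 separate peaks there and 53 in the control list. Peaks of height 10 or more were found at 52 members with TGF-β1 and 49 in the control, and numbered 65 and 59. Leaving out members with no type gave 47 and 42 members. Counting strong peaks only gave 35 and 41 protein genes, and 13 RNU genes other than U1 in the control list. That set and its settings were chosen after the data were seen. It stayed at 18 to 20 of 20 under the 7 window, start, midpoint and height settings in both lists. No paired analysis was possible because each condition had 1 FOXK1 library. No library could be left out for the same reason. Depth is unknown, so a gene with no peak is not shown to lack FOXK1.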
